A study of Mus musculus with 22 samples.

Results

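The cation-chloride cotransporters are membrane proteins of the Slc12 family that carry chloride together with sodium or potassium. The members described here were 4 genes chosen by symbol, Slc12a2, Slc12a4, Slc12a5 and Slc12a7, of 55385 rows in the RNA table, with all peaks within 2 kb of their gene spans on GRCm38. The tissue was the telencephalon of mouse embryos of strain ICR at embryonic day 13.5 (E13.5) or 16.5 (E16.5), with no genetic change or treatment named for either stage. RNA-seq and native ChIP-seq of H3K9ac (histone H3 acetylated at lysine 9), H3K9cr (crotonylated at lysine 9) and H3K18la (lactylated at lysine 18) covered both stages. ATAC-seq, which maps open chromatin, covered E13.5. The series lists 22 samples in 11 groups of 2 libraries, called biological replicates, and 4 of these were inputs, which were not analysed here. The number of embryos behind each library was not stated in the labels.

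Slc12a2 encodes NKCC1, which brings sodium, potassium and chloride into the cell. Slc12a4, Slc12a5 and Slc12a7 encode the potassium-chloride cotransporters KCC1, KCC2 and KCC4, which carry chloride out. In immature neurons NKCC1 keeps intracellular chloride high, so that GABA-A receptors depolarize the cell, and the later rise of KCC2, which is largely restricted to neurons, lowers chloride and makes GABA inhibitory. WNK kinases act through SPAK (Stk39) and OSR1 (Oxsr1), which activate NKCC1 and inhibit the KCCs.

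Total RNA counts were 17059544 and 18485855 for the E13.5 pair and 17533164 and 18024657 for the E16.5 pair. The telencephalic transcription factor genes Emx1, Emx2, Lhx2, Dlx1, Dlx2 and Tbr1 were all measured and all fell. Dlx1 averaged 627 CPM (counts scaled by library size) at E13.5 and 455 CPM at E16.5, and Tbr1 averaged 398 and 224 CPM. Of the 6 mid- and hindbrain markers, Hoxb3, Hoxb4 and Hoxa3 were at 0 in all 4 libraries, and the list summed to at most 10.3 CPM. Cell type markers moved with stage. Of 7 radial glia markers, 5 fell and 2 rose, and their sum was 1803 to 1880 CPM at E13.5 and 1141 to 1274 CPM at E16.5. Of 7 neuron markers, 4 rose and 1 fell, with sums of 4555 to 4589 CPM and 4952 to 5039 CPM. All 5 endothelial markers rose (sums of 79.9 to 89.7 CPM and 261 to 271 CPM), as did all 4 pericyte markers (73.7 to 74.8 CPM and 208 to 228 CPM), 5 of 5 microglia, 4 of 4 astrocyte, 4 of 5 oligodendrocyte lineage and 4 of 5 erythroid markers. None of 3 tested meningeal markers was called. For choroid plexus, an epithelium in which NKCC1 is abundant, 1 of 4 tested markers fell and the sums were 15.9 to 34.5 CPM and 7.04 to 28.2 CPM. Its defining marker Ttr differed between replicates, being at 0.480 and 8.66 CPM in the early libraries and at 0.615 and 19.4 CPM in the late ones. The part of these shifts in the results below was not tested. Among the H3K18la peak lists, E16.5 replicate 1 stood apart, with 62073 peaks of median length 486 bp, against 76037 peaks of 650 bp in replicate 2. The H3K9ac lists were longer at E16.5 (49652 and 50668 peaks) than at E13.5 (37319 and 34532). So were the H3K9cr lists, with 41074 and 42304 peaks at E16.5 against 32567 and 28968.

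All 4 members changed in RNA between the stages, the importer gene Slc12a2 and Slc12a7 downward and Slc12a4 and Slc12a5 upward. Each call was made at an adjusted p under 0.05 in edgeR's quasi-likelihood test across 16237 genes. Changes were common: 28.4% of all tested genes were called higher and 29.2% lower at E16.5, so 2 of 4 members in each direction is read against those shares. The members were also chosen with earlier results of these data known. Stages that do not overlap are a weak sign with 2 libraries each, and the share of all genes without overlap is not given here. Slc12a8 and Oxsr1, which were not called (edgeR adjusted p 0.253 and 0.0973), had no overlap either. In bulk tissue, fewer cells of a type and less RNA per cell cannot be told apart.

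Slc12a2 RNA (ENSMUSG00000024597.11) stood at 159 and 185 CPM in the E13.5 libraries and at 110 and 97.4 CPM in the E16.5 libraries. Both E13.5 libraries were above both E16.5 libraries. The means were 172 ± 18.5 CPM and 104 ± 9.17 CPM (SD, n = 2 each). The log2 fold change was -0.73 (SE 0.087), and the adjusted p in edgeR was 0.000198. Relative to its mean, this gene had the widest spread between E13.5 replicates of the 4, and leaving out single libraries gave -0.84 to -0.63.

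Slc12a5 RNA (ENSMUSG00000017740.17), which encodes the neuronal exporter, measured 30.0 and 29.3 CPM in the E13.5 libraries against 105 and 108 CPM in the E16.5 libraries. The replicates lay close together and the stages were far apart. The means were 29.7 ± 0.490 CPM and 107 ± 1.48 CPM (SD, n = 2 each), a 3.59-fold rise. The log2 fold change was 1.84 (SE 0.057), with an adjusted p of 5.2e-07 in edgeR, and its size exceeded that of 94.5% of tested genes.

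Slc12a4, which encodes the widely expressed exporter KCC1, rose. Its RNA (ENSMUSG00000017765.17) measured 14.5 and 13.6 CPM in the early libraries and 25.0 and 26.5 CPM in the late ones. The stages did not overlap. The log2 fold change was 0.88 (SE 0.103), with an adjusted p of 0.000182 in edgeR and means of 14.0 ± 0.685 and 25.8 ± 1.07 CPM (SD, n = 2 each).

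Slc12a7, which encodes KCC4, fell, unlike the other 2 exporter genes among the members. Its RNA (ENSMUSG00000017756.9) was at 87.8 and 94.6 CPM at E13.5, then at 54.2 and 55.6 CPM at E16.5. Both early libraries were again above both late ones. The means were 91.2 ± 4.82 and 54.9 ± 1.02 CPM (SD, n = 2 each), the log2 fold change was -0.73 (SE 0.060), and the adjusted p in edgeR was 2.59e-05. The authors' deposited table gave log2 fold changes of -0.74 for Slc12a2, 0.86 for Slc12a4, 1.83 for Slc12a5 and -0.74 for Slc12a7.

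**Figure D1:**
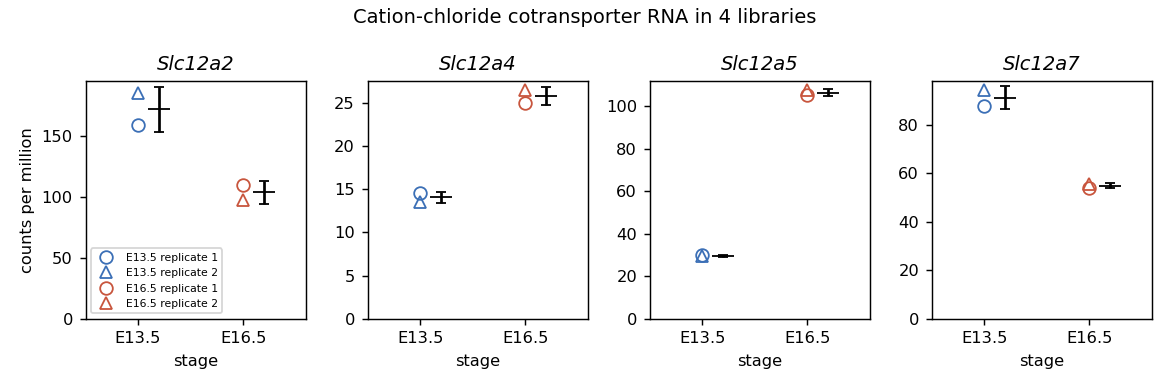
RNA level in CPM (vertical axis, from 0, scaled per gene) by stage for the 4 genes; each open symbol is a library and the black marks are the mean with its SD (n = 2). Both E16.5 libraries lie below both E13.5 libraries for Slc12a2 and Slc12a7, and above them for Slc12a4 and Slc12a5.

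The balance of KCC2 to NKCC1 RNA was followed as the count ratio of Slc12a5 to Slc12a2 within each library, which does not depend on how libraries are scaled. Its log2 value was -2.40 and -2.66 at E13.5, then -0.06 and 0.14 at E16.5. Both late libraries were far above both early ones. The difference of the means was 2.57, or 5.94-fold, and the SDs were 0.18 and 0.15 (n = 2 each). The exact two-sided permutation p was 0.333, the smallest that 2 against 2 libraries can give. The shift is that of this pair and not of all exporter genes, since Slc12a7 had the same log2 fold change as Slc12a2, -0.73. As counts were not divided by transcript length, only the change of this ratio, not its level, is informative.

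**Figure D2:**
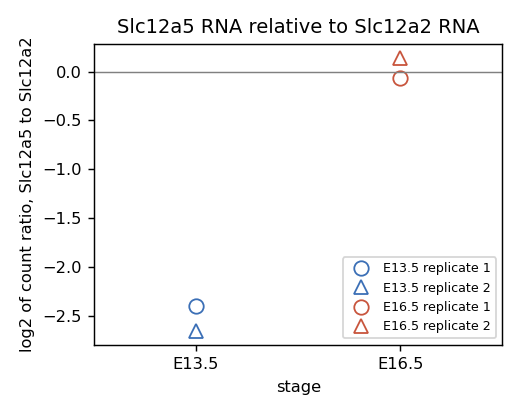
Log2 of the count ratio of Slc12a5 to Slc12a2 (vertical axis) by stage, 1 symbol per RNA library. The E13.5 libraries lie at -2.40 and -2.66 and the E16.5 libraries at -0.06 and 0.14.

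Among other genes of the Slc12 family, Slc12a9, a less characterized relative, rose from a mean of 27.9 to 46.4 CPM (log2 fold change 0.74, edgeR adjusted p 0.000171). Slc12a8 averaged 0.694 and 1.08 CPM and was not called (edgeR adjusted p 0.253). Slc12a1 and Slc12a3, the kidney cotransporter genes, stayed at or under 0.327 CPM in every library and were not tested.

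Over the 6 lists of related genes, 35 of 58 tested genes were called higher and 13 lower in edgeR. Over all tested genes, 28.4% were called higher and 29.2% lower. The lists were chosen with earlier results of these data known, so a difference from these shares is a description and not a test. In the lists, the lower calls were 9 with upper-quartile scaling and 11 with DESeq2, against 37 and 34 higher. The calls of all genes moved too, to 3820 lower and 5349 higher with upper-quartile scaling and 3878 and 3399 with DESeq2. In the main setting they were 4740 lower and 4605 higher. Among 11 WNK-SPAK/OSR1 kinases and partners, 5 fell, 1 rose and 5 were not called, with a median log2 fold change of -0.12 against 0.01 over all tested genes. Stk39, the SPAK kinase that phosphorylates NKCC1 and the KCCs, was at 49.1 and 47.4 CPM at E13.5, then at 26.5 and 22.4 CPM at E16.5. It fell by 0.98 on the log2 scale (SE 0.093, edgeR adjusted p 5.56e-05). The related kinase gene Oxsr1 averaged 88.0 and 81.1 CPM and was not called (edgeR adjusted p 0.0973). Wnk1, upstream of both, fell by 0.21 (edgeR adjusted p 0.00355). Cab39l, a scaffold that activates such kinases, fell by 1.04, and Cul3, part of the ligase that degrades WNKs, by 0.52. Klhl3, the adaptor of that ligase, rose by 0.65.

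The list of partners and regulators of KCC2 went both ways, with 4 of 11 tested genes higher and 5 lower (median log2 fold change -0.08). All tested genes also went both ways, at 28.4% higher and 29.2% lower. Ntrk2, the BDNF receptor, rose by 1.29, Epb41l1, a membrane-cytoskeleton linker, by 1.06, and Neto2, an auxiliary protein that binds KCC2, by 0.75. Ckb, brain creatine kinase, fell by 1.05. Rest, a repressor of neuronal genes, was at 46.1 and 43.3 CPM at E13.5, then at 26.5 and 28.1 CPM at E16.5 and fell by 0.71 (edgeR adjusted p 0.00012). Usf1, a factor that binds E-boxes, fell by 0.30. Egr4, a zinc finger factor known as a regulator of KCC2, was at or under 0.110 CPM in every library and was not tested.

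Most of the listed genes that work beside the cotransporters rose, where 28.4% of all tested genes were called higher and 29.2% lower. Of 14 tested GABA-A and glycine receptor subunit genes, 13 rose and 0 fell, Glra3 was not called, and the median change was 1.47 on the log2 scale. Gabra5 rose by 3.34 and Gabrb1 by 3.03. Of 6 sodium-potassium pump genes, whose product maintains the gradients that drive the cotransporters, 5 rose, with a median of 1.28. Atp1b1 and Atp1b2, which encode beta subunits, rose by 2.28 and 1.51, while Atp1b3 had a log2 fold change of -0.21 that was called in edgeR (adjusted p 0.00905) and not in DESeq2 (adjusted p 0.0582) or with upper-quartile scaling (adjusted p 0.0793). Among 13 tested genes of other chloride and bicarbonate transport, 10 rose and 2 fell (median 0.37). Slc4a4 and Slc4a10, both sodium-bicarbonate transporters, rose by 2.39 and 1.87, and the anion exchanger gene Slc4a3 by 1.18. Clcn5 fell by 0.41. Slc4a2 had -0.24 (edgeR adjusted p 0.025), which was not called in DESeq2 (adjusted p 0.105), with upper-quartile scaling (adjusted p 0.132), or without E13.5 replicate 2 (0.16) or E16.5 replicate 1 (0.108).

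**Figure D3:**
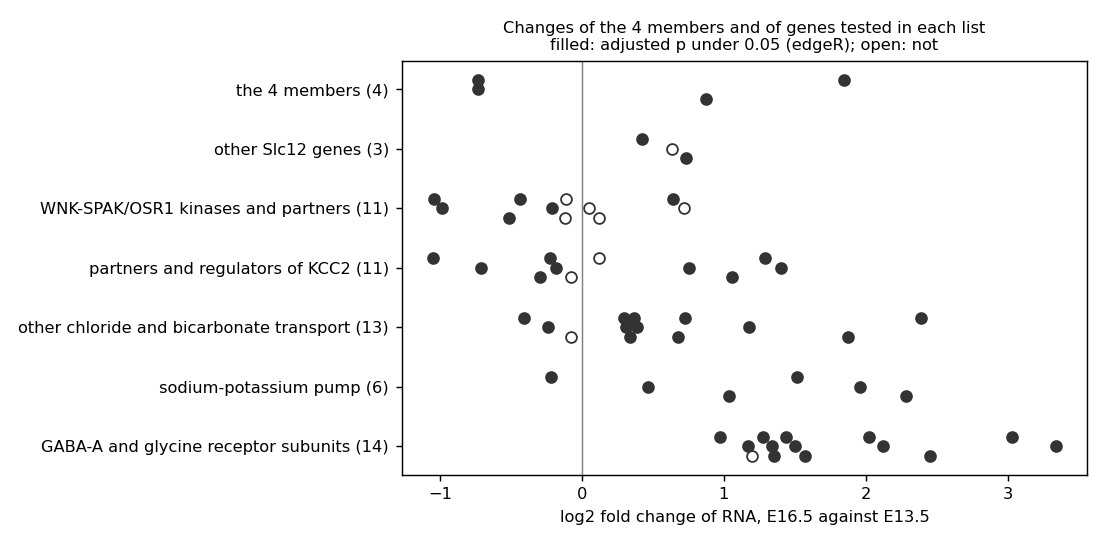
Log2 fold change of RNA, E16.5 against E13.5 (horizontal axis), of the 4 members and of each tested gene of 6 lists, whose number of tested genes stands in parentheses; filled points were called in edgeR. All tested receptor subunit genes lie to the right of 0, with 13 of 14 called, while the kinase list has 5 called genes to the left and 1 to the right.

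The genes whose levels over the 4 libraries lay nearest to each member were found by Euclidean distance between centred log2 CPM values over the 10385 genes that averaged 10 CPM or more. With 4 libraries in 2 stages, nearness mostly reflects a like stage difference. The nearest genes to Slc12a2 were Arpin, Phf23 and Srsf9 (distances 0.046 to 0.051), and those to Slc12a4 were Acvr1, Adgrl2 and B3gat2 (0.016 to 0.037). Fabp3, St6galnac5 and Arhgap29 lay nearest to Slc12a5 (0.047 to 0.065). Pno1, Cnot9 and Gabpb2 lay nearest to Slc12a7 (0.018 to 0.025).

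Histone marks were examined as merged regions, formed from overlapping peaks of the 4 libraries of a mark. Stage-specific regions were those with a peak in the 2 libraries of a stage and in neither library of the other. The members held 12 H3K9ac regions, 12 H3K9cr regions and 9 H3K18la regions, of which 9, 11 and 4 had a peak in all 4 libraries. Over the whole genome, 27432 of 59349 H3K9ac, 24357 of 47916 H3K9cr and 33865 of 104961 H3K18la regions had one. Only 1 H3K9ac region was specific to E16.5 and 0 to E13.5, where 14.5% and 1.26% of all H3K9ac regions were. For H3K9cr, 0 regions of the members were stage-specific in either direction, against 13.9% (E16.5) and 0.584% (E13.5) of all regions. For H3K18la, 0 regions were stage-specific, against 5.02% (E16.5) and 6.87% (E13.5). The H3K9ac and H3K9cr shares changed with the number of peaks used: with equally many per library, all E16.5-only and E13.5-only regions numbered 2692 and 2018 for H3K9ac (from 8603 and 749) and 1960 and 1124 for H3K9cr (from 6648 and 280), and the members held 0. With so few regions these counts are descriptions. Most marked regions of the 4 genes were called at both stages. A region called at both can still differ in strength, so these counts do not show whether marks changed with RNA. Fold enrichment below is the peak caller's own value at a summit, deposited by the authors. It orders peaks within a list, and the lists differ in length, so values of different lists are set side by side without being compared.

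Slc12a5 lies on chr2:164960846-164999731 (plus strand) and has annotated starts at 164960846 and 164967988, 7142 bp apart, which belong to transcripts with alternative first exons. The bases before each start are shown because marked sites covered both starts; they are from RefSeq (GRCm38.p6), and capitals mark motif matches on either strand. The searched letters were CACGTG for the E-box, GGGCGG for the GC box, GCGGGGGCG or GCGTGGGCG for EGR sites, and the MEF2 motif by name. Of 32817 windows of 250 bases before starts, 6.02% held the E-box, 32.7% the GC box, 3.06% an EGR match and 2.92% a MEF2 match.
Slc12a5 first start, chr2:164960596-164960845, plus strand: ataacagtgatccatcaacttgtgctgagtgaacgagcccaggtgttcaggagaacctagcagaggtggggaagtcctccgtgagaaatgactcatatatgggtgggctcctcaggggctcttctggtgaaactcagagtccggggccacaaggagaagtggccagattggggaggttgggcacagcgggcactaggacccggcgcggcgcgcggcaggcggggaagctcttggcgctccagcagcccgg
Slc12a5 second start, chr2:164967738-164967987, plus strand: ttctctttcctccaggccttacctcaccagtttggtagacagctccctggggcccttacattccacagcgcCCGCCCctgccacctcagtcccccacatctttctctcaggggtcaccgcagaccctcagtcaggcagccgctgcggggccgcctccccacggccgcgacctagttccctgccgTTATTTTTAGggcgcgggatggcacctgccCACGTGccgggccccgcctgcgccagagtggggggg
The second window lies inside the gene span. The window before the first start held none of these letters. The window before the second held a GC box whose first base lay 179 bases before the start, a MEF2 match at 66 and an E-box at 36. These are matches of letters, not sites of binding. Their GC contents were 61.2% and 67.2%, against a median of 52.4% over all windows.

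Slc12a5 held 5 marked sites, all with H3K9ac and H3K9cr peaks in all 4 libraries of each mark. Site 1 (164960472-164962301) covered the first start and site 3 (164966848-164970002) the second. Site 2 (164963436-164965699) lay between the starts, site 4 (164970508-164971589) just after the second, and site 5 (164997269-164998418) near the far end of the gene, where the span of Ncoa5 begins 622 bp beyond. Whether sites 2, 4 and 5 are exonic or intronic was not resolved, as no exon annotation was used here.

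The acylations of H3K9 and the lactylation of H3K18 ordered these sites differently. Site 2 was the lowest of the first 4 sites in 6 of 8 H3K9ac and H3K9cr lists and the highest in 0 of 8, whereas it was the highest Slc12a5 site in 3 of 4 H3K18la lists. H3K18la fold enrichment at site 2 was 7.27 and 5.15 in the E13.5 lists and 12.5 and 20.9 in the E16.5 lists. These peaks ranked at percentiles 78.6, 56.5, 93.6 and 98.1 of their own lists and were 1580, 1578, 2177 and 2227 bp long. In both E16.5 lists this peak was the highest at any member. Peaks covering the second start had H3K18la fold enrichment of 4.93 in E13.5 replicate 1 and of 5.88 and 10.5 in the E16.5 lists. In E13.5 replicate 2 the peak of site 3 (2.82) had its summit 639 bp past that start and did not cover it. At site 1 H3K18la fold enrichment was 3.67 and 5.68 at E13.5 and 5.64 in E16.5 replicate 2, with no peak in replicate 1, the library with short peaks. No H3K18la peak was called at site 5.

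H3K9ac fold enrichment at the first start was 13.1 and 9.72 at E13.5, then 17.6 and 19.7 at E16.5, and at the second start 12.4 and 8.70, then 21.9 and 17.2. H3K9cr gave 16.3 and 11.3, then 20.1 and 19.97 at the first start, and 11.6 and 12.1, then 23.0 and 16.5 at the second. One of the starts was thus the highest Slc12a5 site in all 8 lists, the first in 5 and the second in 3. No ATAC peak was called at any Slc12a5 site in either E13.5 library. Among all 32851 start windows of 300 bases, 43.3% had H3K9ac peaks in both E13.5 libraries, and of those 59.9% had ATAC peaks in both libraries; the Slc12a5 windows are among the others.

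**Figure D4:**
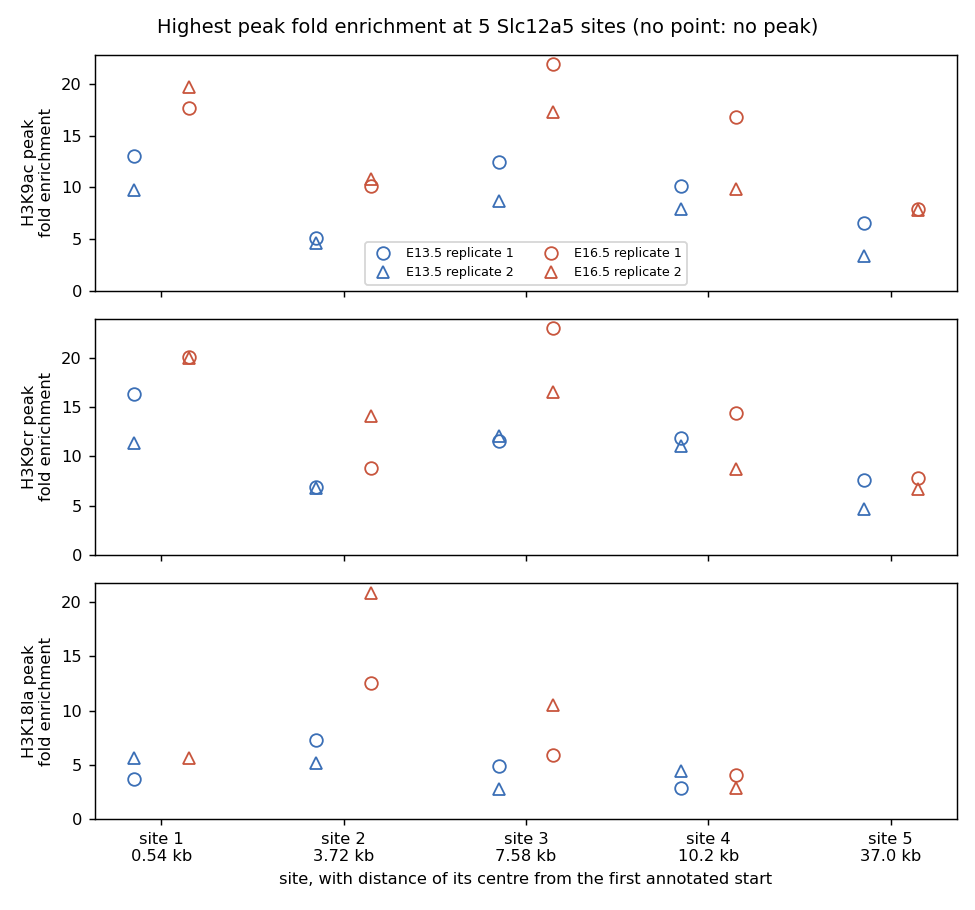
Highest peak fold enrichment (vertical axes, 1 panel per mark) at the 5 Slc12a5 sites, labelled by the distance of their centre from the first start in kb; each symbol is a library, and a missing symbol means no peak. Within each library, site 2 is the highest site in 3 of 4 H3K18la lists and the lowest of the first 4 sites in 6 of 8 lists of the other panels.

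Slc12a7 lies on chr13:73733052-73816754 (plus strand), with annotated starts at 73763660 and 73763697, only 37 bp apart. These starts lie inside the gene span, the first of them 30608 bp from its 5′ end. The region of these starts was the only member site with a peak in all 14 lists. The sequence before the first start is shown for comparison with Slc12a5, with capitals for the GC box on either strand.
Slc12a7 first start, chr13:73763410-73763659, plus strand: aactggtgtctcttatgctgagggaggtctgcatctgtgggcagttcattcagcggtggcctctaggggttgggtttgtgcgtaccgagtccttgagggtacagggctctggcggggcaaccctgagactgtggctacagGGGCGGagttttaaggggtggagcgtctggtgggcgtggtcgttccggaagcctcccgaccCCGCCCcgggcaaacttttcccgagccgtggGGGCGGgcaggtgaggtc
Its GC content was 63.6%. It held 3 GC boxes, and the window of the second start held 6 and an E-box at 38 bases before that start. H3K9ac fold enrichment at the start region (73763289-73765699) was 56.3 and 40.2 at E13.5, then 35.6 and 25.2 at E16.5. H3K9cr fold enrichment was 78.2 and 44.3, then 48.2 and 41.8. These were the highest values of any member in all 8 lists. H3K18la fold enrichment was 10.8 and 10.2, then 9.15 and 7.30, and ATAC fold enrichment 7.91 and 9.37. A weaker site covered the 5′ end of the gene span (73732474-73733447), for which no start was listed in the promoter table used here, and had H3K9cr peaks in all 4 libraries and H3K9ac peaks in 3, and another (73749421-73749818) had a single H3K18la peak in E16.5 replicate 2.

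Slc12a4 lies on chr8:105943590-105966149 (minus strand) with an annotated start at 105966115. The 216 bases outside its span are shown because H3K9ac, H3K9cr and ATAC peaks overlapped the start window in every library.
Slc12a4 start, chr8:105966150-105966365, minus strand: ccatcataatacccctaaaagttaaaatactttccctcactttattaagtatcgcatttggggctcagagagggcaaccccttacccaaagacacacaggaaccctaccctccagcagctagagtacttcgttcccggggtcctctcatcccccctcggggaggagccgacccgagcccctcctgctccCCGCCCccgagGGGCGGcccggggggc
Its GC content was 59.7%, and it held a pair of GC boxes, in capitals, at 61 and 50 bases before the start. H3K9ac fold enrichment at the start site (105965146-105966526) was 15.9 and 17.3 at E13.5, then 15.7 and 19.2 at E16.5. H3K9cr gave 17.9 and 22.8, then 19.3 and 25.5, and ATAC 5.74 and 5.85. H3K18la was called at 4.68 and 7.11 at E13.5 and at 3.63 in E16.5 replicate 2 only, in peaks that did not cover the annotated start. The H3K9ac peaks of both E13.5 libraries did not cover it either, reaching only to 105966093 and 105966078. The single stage-specific region of the members lay inside this gene at 105951380-105951716, with H3K9ac fold enrichment of 4.46 and 3.28 at E16.5 and no peak at E13.5. It overlapped Mir7074 (105951637-105951699), a microRNA gene inside Slc12a4, so the peak cannot be assigned to either gene. The H3K9ac peaks of this region ranked at percentiles 19.7 and 4.2 of their lists, with -log10 q-values of 5.89 and 4.72. With only peaks of -log10 q of at least 5, the replicate 2 peak dropped out and this region was not stage-specific. The count then stayed at 1, from a Slc12a2 region (57883436 to 57884214). With the same number of peaks taken per library, the count of such regions was 0.

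Slc12a2 lies on chromosome 18, 57878512 to 57946821. A site at the lower end of its span (57877322 to 57882814) had peaks in 13 of 14 lists. It joined separate peaks on the outer and inner side of that end. In the outer H3K9ac region (57877322 to 57878362) fold enrichment was 22.3 and 18.1 in the E13.5 lists, with 24.7 and 24.1 in the E16.5 lists. In the inner H3K9ac region (57878676 to 57882814) it was 24.9 and 26.6, then 16.8 and 12.3. The inner region was thus the higher of the pair in both E13.5 lists and the lower in both E16.5 lists. For H3K9cr the outer region (57877377 to 57878389) was the higher in all 4 lists, at 36.9 and 34.0, then 31.0 and 24.2, with 32.5 and 31.7, then 18.5 and 20.03 in the inner region (57878631 to 57881272). ATAC fold enrichment at the site was 8.60 and 8.35. H3K18la was called at 3.11 and 5.62 at E13.5 and at 5.37 in E16.5 replicate 1, with no peak in replicate 2. A smaller site (57883307 to 57884226) had H3K9ac peaks in 3 libraries, at 3.42 to 4.57, and an H3K9cr peak in E16.5 replicate 1 alone.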

How the data were processed

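RNA-seq, ChIP-seq and ATAC-seq libraries came from embryonic mouse telencephalon. The authors deposited expected counts per gene (Salmon 1.1.0 in the submitters' processing notes), and these were rounded to whole numbers. The authors' deposited table of log2 fold changes also gave the p-value of each gene (DESeq2 1.26.0 per the same notes). Each library had its own peak list on GRCm38, for which those notes name Bowtie2 2.4.1 and MACS2 2.2.7.1. A peak carried, per the file headers, a pileup signal, a -log10 p-value and q-value, and a fold enrichment, which is a ratio. The labels do not state which control entered the calling.

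Expected counts were tested with edgeR 4.0.16 (R 4.3.3, TMM scaling, filterByExpr, quasi-likelihood, Benjamini-Hochberg adjustment over 16237 genes). The code was run on simulated data with balanced changes and a single dispersion, which checks the code and not the error rate in these libraries. DESeq2 1.42.0, upper-quartile scaling, no filter on low counts, a replicate block and leaving out each library (the lone library then assumed to vary like the other stage) were alternatives. Peaks sharing at least 1 bp were merged into regions. The members and lists were chosen with earlier results of these data known. Besides the members, the other Slc12 genes, Wnk1, Stk39 and Oxsr1, up to 3 called genes per direction and list (by size of change, mean at least 1 CPM, stages not overlapping) and the 3 nearest genes to each member were named, except some genes that are not reported here. Separate embryos or litters are not named for the libraries, so p-values measure the spread between libraries. Replicates differed beyond sampling noise (chi-square per degree of freedom 5.9 at E13.5 and 7.88 at E16.5). Gene spans, starts and promoter sequences were taken from RefSeq tables (GRCm38.p6).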

Additional observations from a re-analysis of the deposited data

How the results depend on the processing

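The 4 member calls kept their direction and adjusted p under 0.05 with upper-quartile scaling, DESeq2, no filter on low counts, the replicate block and without each library. Replicate numbers are not shown to pair libraries (correlation of same-number deviations 0.125, 2 pairs), and with the replicate block the members' log2 fold changes were -0.73, 0.88, 1.84 and -0.73 for Slc12a2, Slc12a4, Slc12a5 and Slc12a7. Upper-quartile scaling moved the median of all genes from 0.01 to 0.10 (log2). Without single libraries Slc12a4 ranged from 0.81 to 0.92, Slc12a5 from 1.81 to 1.85 and Slc12a7 from -0.79 to -0.69, and the Slc12a5 to Slc12a2 difference from 2.44 to 2.70. Stage-specific region counts depended more on the settings; leaving out a library loosens the rule by construction, and for the other settings the cause was not tested. When every library of a mark contributed equally many peaks, H3K9ac had 2692 E16.5-only and 2018 E13.5-only regions in all, H3K9cr had 1960 and 1124, and the members held 0 E16.5-only H3K9ac regions. Requiring a peak to cover 50% of a region gave the members 2 E16.5-only and 1 E13.5-only H3K9ac regions and 1 E16.5-only H3K9cr region, and gave 1365 E13.5-only H3K9ac regions in all. Without single libraries, all E16.5-only and E13.5-only regions ranged from 10063 to 16012 and 1195 to 2758 for H3K9ac, 7309 to 12156 and 580 to 1589 for H3K9cr, and 7272 to 20987 and 8577 to 19863 for H3K18la. The members' E16.5-only regions then ranged from 1 to 2 for H3K9ac, 0 to 1 for H3K9cr and 0 to 2 for H3K18la, and their E13.5-only H3K18la regions from 0 to 2. Without H3K18la E16.5 replicate 1, the members held 2 E16.5-only and 1 E13.5-only H3K18la regions. With 2 libraries per group, absent peaks may lie just under the calling threshold.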
